A study of Homo sapiens with 6 samples.

Results

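PROSER1 encodes a proline- and serine-rich nuclear protein that has been linked to the addition of a sugar to TET2 by the enzyme OGT and to enhancers bound by the histone demethylase KDM6A. It is described here together with OGT, with the DNA demethylation enzymes TET1, TET2, TET3 and TDG, and with KDM6A. These 7 genes were taken by name from the 53719 rows of the gene count table, with PROSER1 as the lead gene. All 7 had enough counts to be among the 19721 genes tested. PROSER1 was picked because it differed between the groups in this same comparison, so the differences of the 7 genes are given as descriptions. Where a threshold is mentioned for one of them, passing it is not independent evidence.

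Total RNA came from the human embryonic stem cell line H9, an established line, kept in RSeT medium, which is sold for holding such cells in a naive state. Both groups had a gapmer in their cells for 48 h before the RNA was taken; gapmers are short antisense oligonucleotides that make RNase H cut the RNA they pair with. In the ALR knockdown group (3 libraries, Sense3) the gapmer was aimed at ALR, the alpha satellite RNA of centromeres, and in the control group (3 libraries) it was a control gapmer. The gapmer sequences are not given in the sources used here. A single cell line was used, and the labels do not say that the libraries came from separate cultures, so errors and p-values measure the spread between these libraries, which may be technical. In each list of 3 values below, the libraries stand in the order a, b, c.

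Total counts ran from 25087629 to 36576752 per library, and knockdown library c was the shallowest. Knockdown library a stood apart, with counts in 29678 rows against 25898 to 26788 in the other 5. The table had 0 rows named for alpha satellite, so the targeted RNA itself was not analysed here. Of 8 pluripotency markers, 7 were well above 1 CPM (counts scaled to a common library total). Their summed level was 5711.7 to 6451.0 CPM in knockdown and 5606.0 to 5719.5 in control libraries. POU5F1 was higher in every knockdown library, by 0.42 ± 0.10 on the log2 scale (SE, edgeR adjusted p = 0.0948). LIN28A and DNMT3B were also higher in every knockdown library, where 9.55% of all tested genes were. The groups overlapped for NANOG, SALL4, TDGF1 and L1TD1. SOX2 was listed at 0 in every library. It lies inside SOX2-OT on the same strand. The 8 naive-state markers summed to 72.45 to 80.64 CPM in knockdown and 72.72 to 78.15 in control libraries. In controls they were led by TFCP2L1 (mean 27 CPM), DPPA3 (18.8) and KLF4 (17.9). The control means of KLF5, SUSD2, DNMT3L and DPPA5 were 5.27, 2.61, 2.33 and 0.999, and KLF17 had a mean of 0.0766. DNMT3L was lower in every knockdown library, where 9.37% of all tested genes were. Its log2 difference was -0.72 ± 0.27 (SE, edgeR adjusted p = 0.258). The groups overlapped for the other tested naive-state markers. Of 6 primed-state markers 5 had a row, with sums of 121.6 to 141.3 CPM in knockdown and 123 to 135.2 in control libraries, and THY1 was listed at 0. All 6 trophectoderm and amnion markers were under 1 CPM in every library. The 6 germ-layer markers summed to 3.36 to 3.96 CPM in knockdown and 3.38 to 4.10 in control libraries. The 5 fibroblast markers summed to 87.68 to 96.46 CPM in knockdown and 90.48 to 104.1 in control libraries. COL1A2 was the highest of them, with a control mean of 77.0 CPM. PDGFRB, with a control mean of 0.715 CPM, was higher in every knockdown library. Its log2 difference was 1.15 ± 0.37 (SE, edgeR adjusted p = 0.188). The groups overlapped for COL1A1 and COL1A2. Of 155 genes past the threshold in the whole table (edgeR's quasi-likelihood test, Benjamini-Hochberg adjusted p under 0.05), 27 were higher in knockdown. The split moved with the scaling, to 45 higher of 157 with upper-quartile scaling and 56 higher of 158 with library size alone.

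The TET enzymes oxidise 5-methylcytosine in DNA stepwise, and thymine DNA glycosylase, the product of TDG, cuts out the last oxidised forms so that base excision repair can restore plain cytosine. OGT is the enzyme that attaches N-acetylglucosamine to serines and threonines of nuclear and cytosolic proteins, the TET proteins among them. KDM6A removes methyl groups from lysine 27 of histone H3 and works inside the enhancer complexes built around KMT2C and KMT2D. Embryonic stem cells are known for high TET1.

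PROSER1 (ENSG00000120685.19) lies on chromosome 13 at 39009866-39038076 of GRCh38, on the minus strand, and its longest annotated transcript has 13 exons. It starts back to back with NHLRC3, a gene for an NHL-repeat protein, which runs the other way on the plus strand. In RefSeq the first bases of the 2 genes are at 39038089 and 39038311, so 221 bases separate them. The stretch between the starts is printed because PROSER1 and NHLRC3 share it and their counts can be compared across it. As printed, on the PROSER1 strand, it runs from the NHLRC3 start to the PROSER1 start. It is chr13:39038090-39038310 (RefSeq, GRCh38.p14), read 5′ to 3′ on the PROSER1 strand, with each CpG in capitals:

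PROSER1 to NHLRC3 interval: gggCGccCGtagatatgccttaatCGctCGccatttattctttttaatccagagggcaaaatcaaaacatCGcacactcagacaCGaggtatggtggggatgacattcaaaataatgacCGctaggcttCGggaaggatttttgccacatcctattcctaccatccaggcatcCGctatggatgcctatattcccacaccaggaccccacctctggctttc

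The interval held 9 CpG dinucleotides, the sites that DNA methylation and the TET enzymes act on, and 48.9% of its bases were G or C. On both strands it held 0 matches to each of 5 motifs searched, which were the TATA box core TATAAA, the CCAAT box (CCAAT), the GC box (GGGCGG), the E-box CACGTG and the YY1-type motif ATGGCGGC. Over all 35116 RefSeq windows from 250 bases before to 50 bases after a start, the TATA box core was found in 11.5%, the CCAAT box in 34.6%, the GC box in 45%, the E-box in 7.26% and the YY1-type motif in 3%. Those windows are 300 bases long, against 221 for the interval. The windows of NHLRC3, which reach past the interval, held 1 and 2 matches to the GC box. The window of PROSER1 itself held 0 matches to each of the 5 motifs. It held 13 CpG, close to the median of 14 over all windows. Among the other members, which all had at least 1 window, the 3 windows of TET1 held 10, 6 and 11 CpG. TET2 had one window with 13 and another with 35, which was more than in 85.9% of all windows. The single windows of TDG, OGT and KDM6A held 22, 26 and 29, and those of TET3 held 45 and 33.

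PROSER1 was the member with the largest difference between the groups. Its raw counts were 2656, 3145 and 2306 in knockdown, and 4598, 5298 and 5737 in controls. Scaled to a common library size with TMM factors, it stood at 93.6, 94.2 and 91.2 CPM in the knockdown libraries and at 162, 171 and 158 CPM in the controls. Fewer cells with PROSER1 RNA and less PROSER1 RNA per cell cannot be told apart in such bulk libraries. The groups were far apart: the highest knockdown library was below the lowest control library even before any scaling for depth. The knockdown mean was 93.0 ± 1.58 CPM and the control mean 163 ± 6.52 CPM (SD, n = 3 each), so that knockdown libraries held 56.9% of the control level. The log2 difference was -0.81 ± 0.06 (SE).

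The 3 knockdown libraries gave nearly the same PROSER1 value. Their coefficient of variation was 1.7%, close to the 1.92% that counting error alone gives at this depth, and it was 3.99% in the controls, against 1.39% from counting. Among the 4986 tested genes with a mean of at least 50 CPM, PROSER1 had the 7th lowest log2 difference, and among all 19721 it ranked 102nd. PROSER1 was picked on these same libraries, so leaving out a library describes the difference and does not test it. With each library left out, the difference ran from -0.84 (without control library c) to -0.79 (without control library b). Without knockdown library a, the one with counts in the most rows, it was -0.82, and without knockdown library c it was also -0.82.

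**Figure D1:**
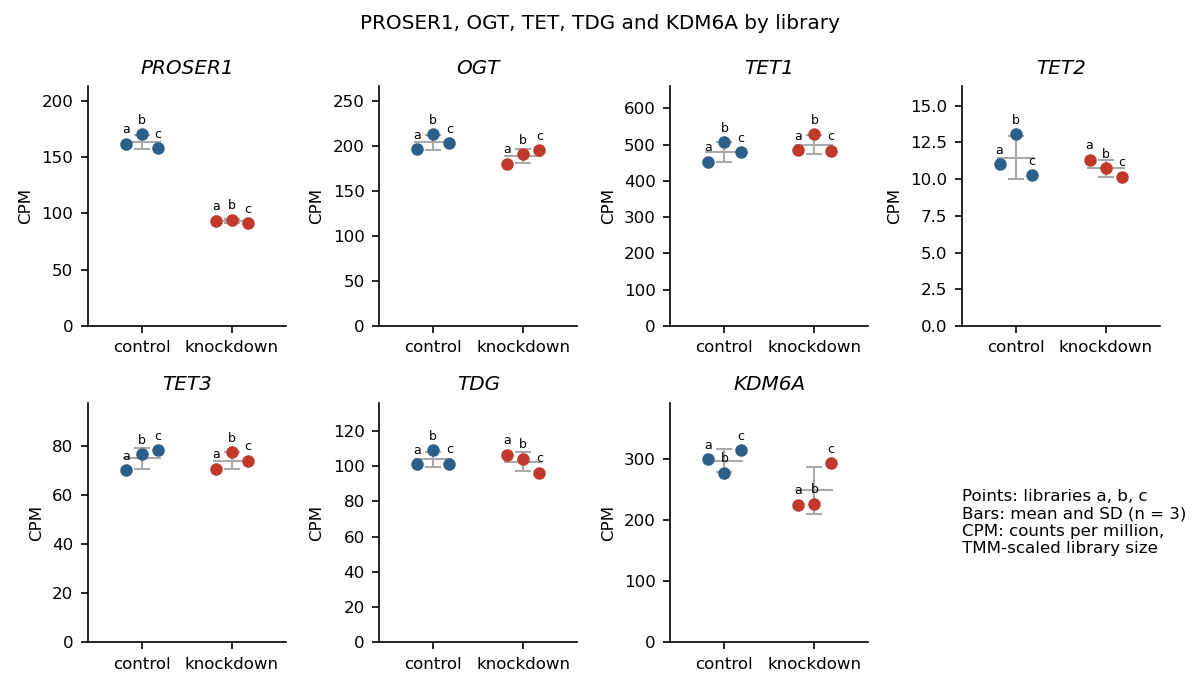
Level of the 7 genes in each library, in CPM with TMM-scaled library sizes on axes that start at 0. Points are libraries a, b and c, and grey bars are the mean and SD (n = 3). PROSER1 lies at 91.2 to 94.2 CPM in knockdown and 158 to 171 in control libraries, KDM6A is split within the knockdown group, and the other genes differ little.

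OGT, the only enzyme that adds O-linked N-acetylglucosamine inside the nucleus and cytosol, lies on chromosome X at 71533083-71575897 (GRCh38, plus strand). It had 180.1, 191 and 195 CPM in knockdown and 197, 213 and 203 CPM in controls. The groups did not overlap, but knockdown library c and control library a were less than 2 CPM apart. The log2 difference was -0.11 ± 0.06 (SE), and 92.5% of the control level was left. It ran from -0.16 to -0.08 over the 6 fits that left out a library.

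The count of members whose groups did not overlap was 2 of 7 (PROSER1 and OGT, both lower), where 18.9% of all tested genes had groups that did not overlap (9.37% with knockdown lower and 9.55% with knockdown higher). The count past the adjusted threshold of edgeR's test was 1 of 7, PROSER1, where 0.786% of all tested genes passed (0.649% lower and 0.137% higher). Both counts come from the comparison that picked the genes and are not evidence about them.

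TET1, which like TET2 and TET3 oxidises 5-methylcytosine and is the main TET gene of embryonic stem cells, lies on chromosome 10 at 68560656-68694482 (GRCh38, plus strand). Its level was 485, 529.5 and 483 CPM in knockdown and 453, 507 and 479.7 CPM in controls. The groups overlapped, library b was the highest in each, and the log2 difference was 0.06 ± 0.07 (SE). TET1 overlaps the pseudogenes COX20P1 and RPS3AP37 on its own strand, so reads could be shared.

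TET2, the family member whose sugar modification has been tied to PROSER1, lies on chromosome 4 at 105145875-105279816 (GRCh38, plus strand). It was the least abundant member, with raw counts of 321, 359 and 257 in knockdown and 313, 406 and 373 in controls. In CPM these were 11.3, 10.8 and 10.2 against 11.0, 13.1 and 10.3. All 3 knockdown values lay near the 2 lower controls, and control library b was the highest. The log2 difference was -0.09 ± 0.11 (SE), the widest error of the 7, and its sign turned to 0.01 without control library b. The coefficient of variation in the controls was 12.7%, where counting error alone gives 5.24%. TET2 overlaps the antisense gene TET2-AS1, whose row was 0 in every library, and although the library kit keeps strand, the strand setting of the counting is not given in the sources used here.

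TET3, the member best known from oocytes and early embryos, lies on chromosome 2 at 73986404-74108176 (GRCh38, plus strand). It had 70.5, 77.2 and 73.8 CPM in knockdown and 70.0, 76.5 and 78.0 CPM in controls. The groups overlapped almost fully, with a log2 difference of -0.02 ± 0.07 (SE). TET3 overlaps the annotated gene AC110801.1 on the opposite strand.

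TDG, the glycosylase that removes the oxidised bases, lies on chromosome 12 at 103965804-103988874 (GRCh38, plus strand). It had 107, 104 and 96.35 CPM in knockdown and 101, 109 and 101.5 CPM in controls. These groups overlapped as well, and the log2 difference was -0.02 ± 0.07 (SE). The annotation holds a pseudogene copy named TDGP1, so the split of reads between the copies is uncertain. For TET3 and TDG the sign was not fixed. With library size alone in place of TMM both were 0.01, and the sign also turned for TET3 without knockdown library a or control library c and for TDG without knockdown library c or control library b.

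KDM6A, the demethylase of histone H3 lysine 27, lies on chromosome X at 44873177-45112602 (GRCh38, plus strand) and was the one member whose knockdown libraries disagreed. It had 225, 227 and 293 CPM in knockdown and 300.1, 277 and 314 CPM in controls. Knockdown libraries a and b lay below every control, whereas knockdown library c lay among the controls. The coefficient of variation was 15.7% in knockdown, the highest of any member, against 6.21% in controls, and counting error gives 1.18% and 1.02%. The log2 difference was -0.26 ± 0.10 (SE) with all libraries and -0.41 ± 0.06 without knockdown library c, where the gene moved past the adjusted threshold. It was -0.19 without knockdown library a. With no low-count filter KDM6A also passed, at -0.26 ± 0.08. Knockdown library c was also the shallowest library; the part of depth in the split was not tested.

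**Figure D2:**
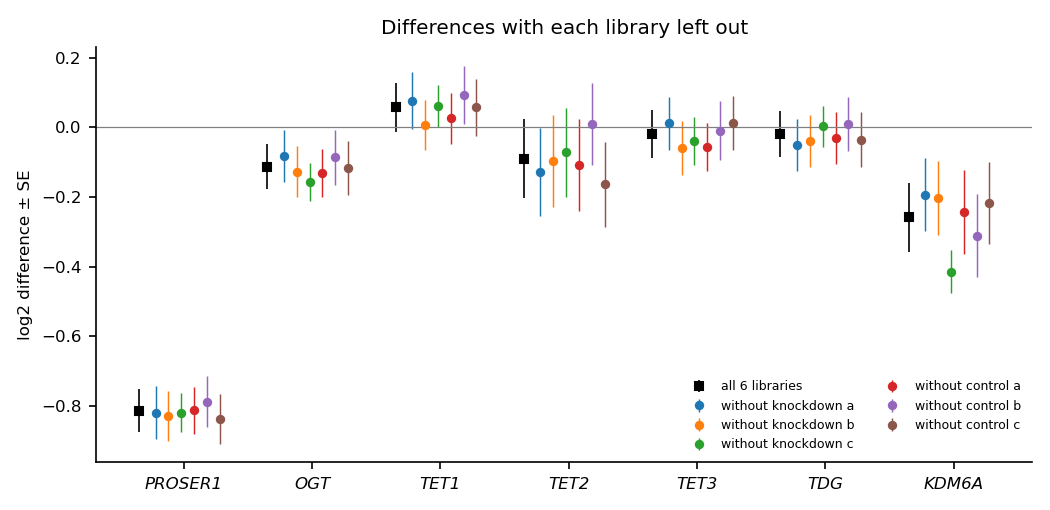
Log2 difference (knockdown minus control) of each gene with all 6 libraries (black squares) and with each library left out (coloured points); bars are SE from edgeR's fit. PROSER1 stays between -0.84 and -0.79, KDM6A moves from -0.26 to -0.41 without knockdown library c, and TET2, TET3 and TDG cross 0.

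Levels of different genes were compared per kilobase of annotated exon (CPM per kb, GENCODE release 29, all exons merged). In controls TET1 was highest at 51.7 ± 2.89, followed by KDM6A at 41.6 ± 2.58 (SD, n = 3). PROSER1 at 22.3 ± 0.892, TDG at 21.2 ± 0.899 and OGT at 20.8 ± 0.860 followed, and each of these neighbours in the order lay within the summed SDs of the next. TET3 at 6.10 ± 0.345 and TET2 at 0.695 ± 0.0883 were clearly lower than the rest. In knockdown libraries PROSER1 stood at 12.7 ± 0.216 per kb, below TDG at 20.9 ± 1.10 and OGT at 19.2 ± 0.793, so it left the group of 3 with like levels. With the length of the longest transcript, the controls read 31.6 for PROSER1, 31.9 for TDG and 28.2 for OGT, and TDG then came before PROSER1.

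**Figure D3:**
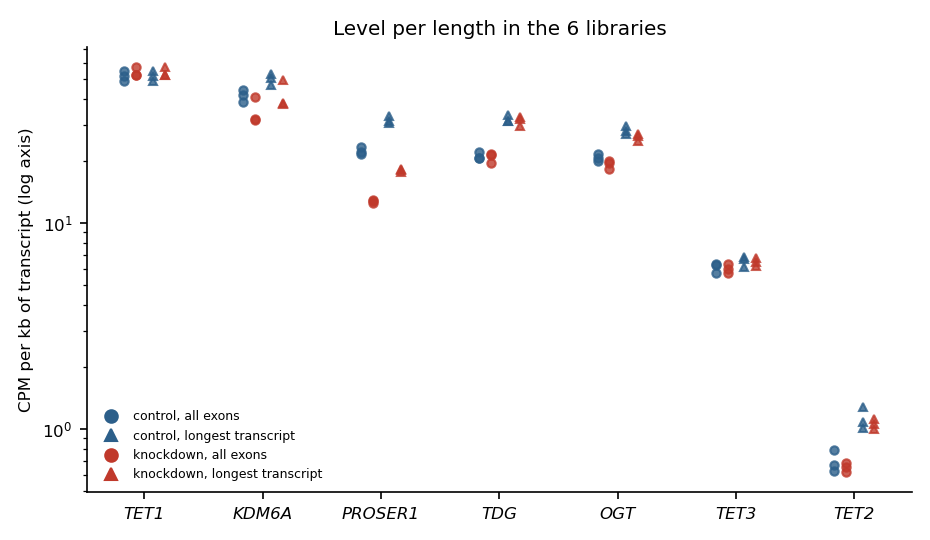
Level per kb of transcript (CPM per kb, log axis) of the 7 genes in the 6 libraries, by the merged exons (circles) or the longest transcript (triangles). Genes run from the highest to the lowest control mean, from TET1 at 51.7 to TET2 at 0.695; PROSER1 is at 22.3 in control and 12.7 in knockdown libraries.

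The makeup of the TET family was nearly the same in every library. Per kb of exon, TET1 made up 88.1% to 89.1% of the summed TET level, TET3 9.80% to 10.8% and TET2 1.02% to 1.29%. The TET1 share was 89.03%, 89.14% and 88.7% in knockdown and 88.44%, 88.59% and 88.1% in control libraries. It was thus higher in every knockdown library, by little, and the shares of TET2 and TET3 overlapped between the groups. The summed level averaged 60.4 ± 3.06 CPM per kb after knockdown, against 58.45 ± 3.22 for the controls (SD, n = 3), so the group means were closer than the spread within either. PROSER1 for each unit of summed TET was 0.218, 0.201 and 0.213 in knockdown and 0.401, 0.379 and 0.368 in controls. Against TET2 alone, the partner it has been tied to, PROSER1 was 19.5 ± 0.807 times as abundant per kb in knockdown and 32.4 ± 2.7 times in control libraries. The lower ratios follow the PROSER1 values, since the TET levels overlapped between the groups.

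OGT works against OGA, the enzyme that takes the same sugar off. Per kb the ratio of OGT to OGA was 0.406, 0.415 and 0.452 in knockdown and 0.448, 0.451 and 0.442 in controls. Knockdown libraries a and b were below the controls, and c was level with the highest of them. KDM6A outnumbered its paralog KDM6B, the other lysine 27 demethylase, by 5.73 to 8.58 in knockdown and 8.85 to 11.5 in control libraries. That ratio was lower in every knockdown library, but by little for library c. OGA itself differed by -0.04 ± 0.06 and KDM6B by 0.16 ± 0.11 on the log2 scale (SE), each with overlapping groups.

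The genes next to PROSER1 were examined, because NHLRC3 shares the interval printed above. NHLRC3 had 29.1, 28.9 and 27.1 CPM in knockdown and 30.1, 32.2 and 29.95 CPM in controls. The groups did not overlap, but the difference was small, at -0.12 ± 0.07 on the log2 scale (SE; edgeR adjusted p = 0.505 over all genes). PROSER1 for each unit of NHLRC3, per kb, was 2.82, 2.86 and 2.95 in knockdown and 4.71, 4.64 and 4.62 in control libraries. Every knockdown library had a lower ratio than every control. This follows the PROSER1 values, on which the gene was picked, and adds no separate evidence. STOML3, a stomatin-like membrane protein gene 19033 bases beyond the 3′ end of PROSER1 in RefSeq, had 5 to 16 counts per library and was not tested.

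Of the 5 neighbours with a row on each side, 4 of 10 had enough counts to be tested, and 0 passed an adjusted p of 0.05 (edgeR; 2 had an unadjusted p under 0.05, where 14.3% of all tested genes did; DESeq2's Wald test and limma-voom also called 0). LHFPL6, a gene of the lipoma HMGIC fusion partner family, had 14.8, 15.0 and 20.6 CPM in knockdown against 24.8, 18.8 and 19.0 in control libraries. Its log2 difference was -0.31 ± 0.14 (SE; edgeR adjusted p = 0.341), and it passed the threshold only without knockdown library c, at -0.50. FREM2, an extracellular matrix protein gene, differed by 0.20 ± 0.09 (SE; edgeR adjusted p = 0.345), with overlapping groups. The other 2 genes that carry the PROSER name did not pass either. PROSER2 differed by 0.07 ± 0.17 and PROSER3 by 0.09 ± 0.12 on the log2 scale (SE; edgeR adjusted p = 0.896 and 0.791). Neither had an unadjusted p under 0.05, and DESeq2 and limma-voom called 0 of the 2.

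**Figure D4:**
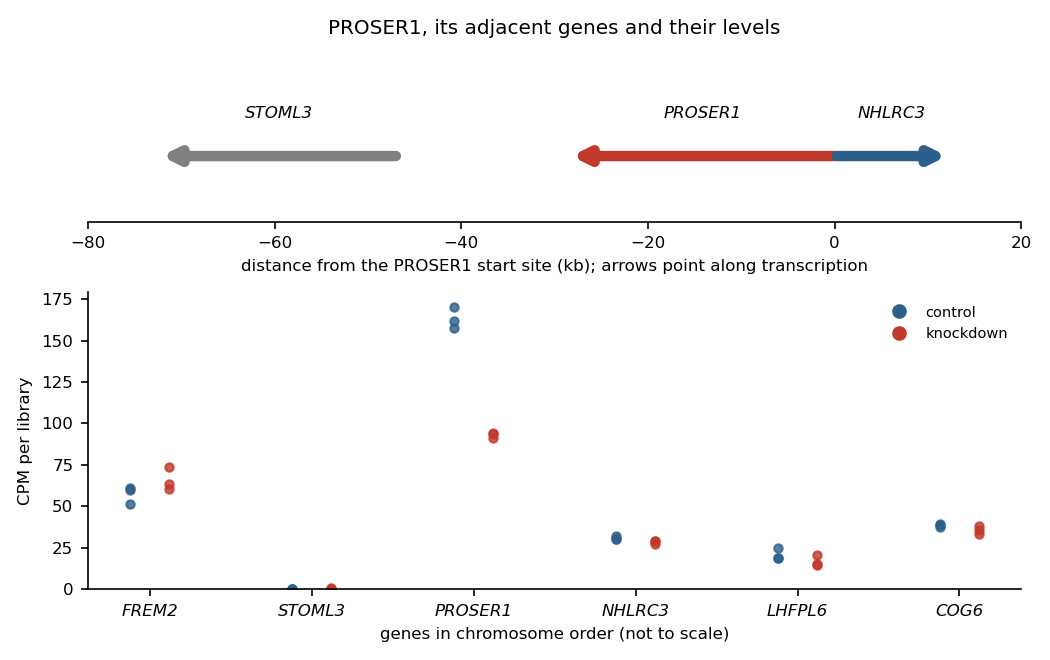
Top: PROSER1 and its adjacent genes by distance from the PROSER1 start site (kb, to scale), with arrows along transcription. Bottom: CPM in each library of PROSER1 and the neighbours named in the text and of COG6. PROSER1 is separated by group at 91.2 to 94.2 against 158 to 171 CPM, whereas NHLRC3 lies at 27.1 to 29.1 against 29.95 to 32.2.

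The remaining genes of the pathway were read as 5 lists, set beside all tested genes, whose median log2 difference was 0.02 with 45.6% below 0. Past the adjusted threshold of edgeR's test were 0 genes in each list. The share of all tested genes past that threshold was 0.786%, and limma-voom called 0.882%. DESeq2 called 3.9% of the 13601 genes to which it gave an adjusted p.

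The first list holds the steps after TET: glycosylases, gap-filling and ligation factors of base excision repair, and the GADD45 proteins that have been tied to demethylation. All 15 genes were tested, with a median log2 difference of 0.08 and 5 below 0. At an unadjusted p under 0.05 there were 4 of 15, of which 3 were higher, where 14.3% of all tested genes had such a p, and DESeq2 and limma-voom called 0. GADD45A, a stress-induced factor and p53 target, had 8.14, 8.75 and 9.14 CPM in knockdown and 11.6, 10.6 and 10.6 in control libraries. Its groups did not overlap, with a log2 difference of -0.33 ± 0.11 (SE; edgeR adjusted p = 0.183). SMUG1, a uracil and hydroxymethyluracil glycosylase, differed by 0.27 ± 0.11 (SE; edgeR adjusted p = 0.286), and its groups overlapped.

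Partners, regulators and readers of the TET proteins made up the second list, with 13 of 13 genes tested, a median of 0.02 and 6 below 0. The groups did not overlap for 7 of 13, where the share over all tested genes was 18.9%. Of these, CXXC5, SIN3A, DDB1 and HMCES were higher in knockdown, and UHRF2, QSER1 and PRDM14 were lower. In the other lists it was 3 of 15 (base excision repair), 3 of 12 (2-oxoglutarate), 2 of 13 (O-GlcNAc) and 3 of 15 (KDM6A complex). There were 3 with an unadjusted p under 0.05, against 14.3% of all tested genes. Limma-voom called 0 and DESeq2 called 2, which were CXXC5 and UHRF2, against 3.9% of the genes to which DESeq2 gave an adjusted p. CXXC5, a CXXC zinc finger protein reported to bind TET2 and affect its stability, had 41.0, 48.7 and 39.0 CPM in knockdown and 34.3, 33.0 and 29.3 in control libraries. Every knockdown library was above every control, and the log2 difference was 0.41 ± 0.09 (SE; edgeR adjusted p = 0.0707). CXXC5 passed in 5 of 15 alternatives, among them the fit without knockdown library c (0.46; edgeR adjusted p = 0.0141). UHRF2, a ubiquitin ligase that reads 5-hydroxymethylcytosine, had 54.5, 51.0 and 56.3 CPM in knockdown against 60.0, 67.6 and 65.8 in control libraries. Its groups did not overlap either, and it differed by -0.26 ± 0.07 (SE; edgeR adjusted p = 0.128). It passed in 3 of 15 alternatives, among them the fit without knockdown library c (-0.31; edgeR adjusted p = 0.0290). CXXC5 and UHRF2 each overlap a gene on the opposite strand, so their reads could be shared.

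The TET enzymes and KDM6A need 2-oxoglutarate as a co-substrate, and the third list holds 12 genes of its supply and turnover. They encode enzymes and subunits that make or use it, or that act on succinate and fumarate, the citric acid cycle products known to inhibit these dioxygenases. All 12 were tested, 10 were above 0 and the median was 0.06. With edgeR 2 of 12 had an unadjusted p under 0.05, both higher, a share near the 14.3% of all tested genes, and DESeq2 and limma-voom called 0. IDH2, the mitochondrial isocitrate dehydrogenase, had 34.2, 39.1 and 35.45 CPM in knockdown and 30.9, 29.9 and 29.5 in control libraries. The groups were apart, with a log2 difference of 0.27 ± 0.07 (SE; edgeR adjusted p = 0.129). FH, the fumarate hydratase of the citric acid cycle, also had groups that did not overlap and differed by 0.18 ± 0.07 (SE; edgeR adjusted p = 0.267).

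In the list of O-GlcNAc cycling, the hexosamine pathway that makes the sugar donor, and OGT partners, 13 of 14 genes were tested. AMDHD2 was too low, and it overlaps a gene on the same strand. The median was 0.04 with 5 below 0, and 0 genes had an unadjusted p under 0.05 (0 called by edgeR, DESeq2 and limma-voom). BAP1, a deubiquitinase of the OGT-binding protein HCFC1, had 71.2, 83.45 and 76.9 CPM in knockdown and 71.4, 68.2 and 70.7 in controls. Its groups overlapped, with a log2 difference of 0.14 ± 0.07 (SE; edgeR adjusted p = 0.402). GNPDA2, a glucosamine-6-phosphate deaminase, differed by -0.15 ± 0.09 (SE; edgeR adjusted p = 0.477), and these 2 genes were the ends of the list's range.

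The fifth list joined the KDM6A complex of KMT2C and KMT2D with the enzymes that write lysine 27 methylation. Of 16 genes 15 were tested, since PAGR1, which other annotated genes overlap on its strand, was listed at 0 in every library. The median was -0.03, 11 were below 0, and 0 had an unadjusted p under 0.05 (0 called by edgeR, DESeq2 and limma-voom). KMT2C, the MLL3 methyltransferase, had 263, 291 and 288.5 CPM in knockdown and 296, 313 and 325.5 in control libraries, and the groups did not overlap, by a narrow margin. Its log2 difference was -0.15 ± 0.07 (SE; edgeR adjusted p = 0.351). EZH2, the catalytic subunit that adds the mark KDM6A removes, differed by -0.12 ± 0.06 (SE; edgeR adjusted p = 0.422). KMT2D, read from the row with its older symbol MLL2 and named after its values were seen, had 233, 302 and 223 CPM in knockdown and 207, 223 and 235 in control libraries. The high value was that of knockdown library b, not of library c, which was the high one for KDM6A.

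**Figure D5:**
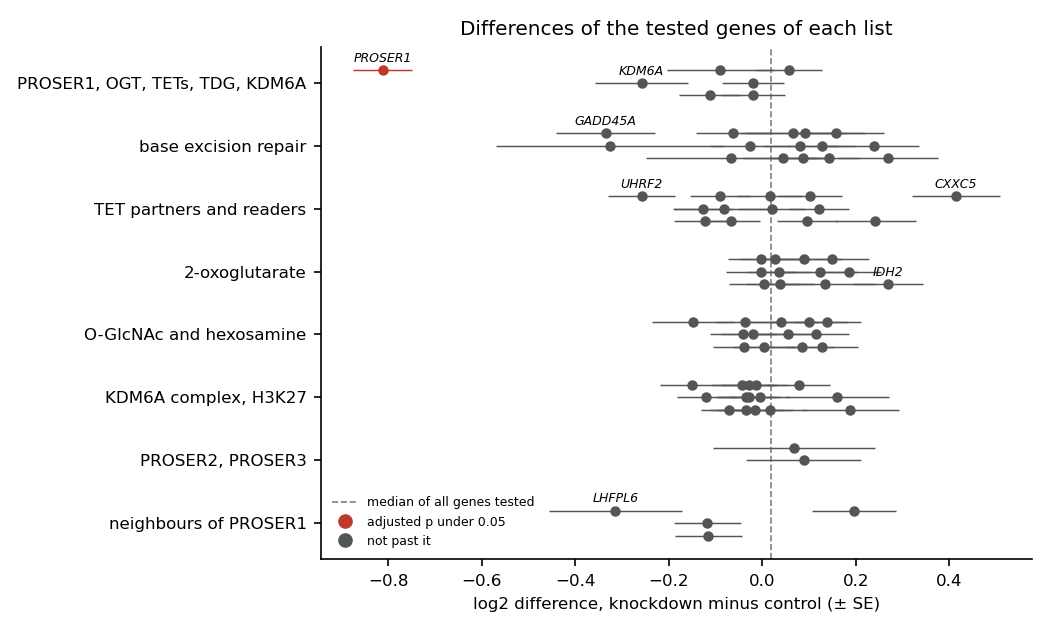
Log2 difference (knockdown minus control, bars SE from edgeR's fit) of each tested gene, grouped by list, with the median of all tested genes (0.02) as a dashed line. PROSER1 at -0.81 is the only gene plotted past an adjusted p of 0.05; the others lie between -0.33 and 0.41.

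The 5 genes whose values over the 6 libraries were most like those of PROSER1 were found by Pearson's r of log2 CPM among 15133 tested genes with a mean count of at least 50. They were SENP2, a SUMO protease (r = 0.9953), CNR1, a cannabinoid receptor (0.9944), WASL, an actin nucleation promoter (0.9932), SLC4A8, a bicarbonate transporter (0.993), and CCDC92 (0.9918). With 3 libraries on each side such values mainly restate that both genes were lower in knockdown, and 159 genes had an r above 0.95. CNR1 came nearest in size, with 25.8, 27.3 and 27.3 CPM in knockdown and 44.5, 49.2 and 43.4 in control libraries, a log2 difference of -0.77. The other 4 differed by -0.25 (SENP2), -0.53 (WASL), -0.35 (SLC4A8) and -0.60 (CCDC92). The choice of genes was not stable: with Spearman's rho 0 of the 5 were among the top 5, and with each library left out at most 1 was.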

How the data were processed

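Raw counts per gene symbol for 6 libraries were deposited by the authors, with no scaling. The submitters' processing notes name hg38, Trimmomatic 0.39, STAR 2.7.8a and featureCounts. Strand setting, annotation and handling of multiply aligned reads are not given in the sources used here. Differences were tested with edgeR 4.0.16 (R 4.3.3): filterByExpr, TMM scaling, quasi-likelihood fit with group as the only term, two-sided p-values adjusted by Benjamini-Hochberg over 19721 genes at a threshold of 0.05. The procedure was tested on simulated data. CPM use TMM-scaled library sizes. Log2 CPM for likeness used a prior count of 2.

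Rows were matched to GENCODE release 29 and RefSeq GRCh38.p14 by symbol or an unambiguous older symbol. The members and lists were chosen with earlier results of these data known. From each list the genes past the threshold were to be named (at most 3), or else the 2 with the smallest p. The genes adjacent to PROSER1, PROSER2, PROSER3 and the 5 genes most like PROSER1 were also named. Alternatives were other scalings, filters and tests (DESeq2 1.42.0, limma 3.58.1), a replicate block, removal of the trend on gene span (natural spline, 5 degrees of freedom, 15926 genes) and leaving out each library.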

Additional observations from a re-analysis of the deposited data

How the results depend on the processing

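Over the 15 alternatives the log2 difference of PROSER1 ran from -0.85 (gene span trend removed) to -0.79 (library size alone). It was past the threshold in all 15, but these refit the libraries on which it was picked, so that is no sign of stability. The differences of the other 6 members moved by less than the spread between libraries in each alternative, although KDM6A passed the threshold in 2 of 15 (no low-count filter, and without knockdown library c). Other scalings shifted the median of all genes by 0.03 at most (library size alone). The number of genes past the threshold (155) was 1064 with no low-count filter, 530 with DESeq2's Wald test and 242 with the gene span trend removed. With a library left out it ran from 26 (without control library a) to 1309 (without knockdown library c), with 102 and 61 without knockdown libraries a and b and 42 without control library b or c. The cause was not tested. Among TET partners, regulators and readers, where 0 passed, 1 did with library size alone, 2 with no low-count filter and 2 with DESeq2's Wald test, and the range was 0 to 2 with a library left out. Among the neighbours of PROSER1 it was 0 to 1. In the other 5 lists the count stayed at 0 in all 15.

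Whether the shared letters pair the libraries cannot be decided from 3 libraries per group. Same-letter deviations from the group means had correlations of 1.23e-05 (a), 0.116 (b) and -0.0251 (c). Those of different letters ran from -0.0876 to 0.0907. Under a replicate block 393 genes passed, all 155 included, PROSER1 differed by -0.81, and 1 of the TET partners passed (CXXC5).

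The lengths used moved the per-kb levels of all members but TET1. TET2, with 257 to 406 counts per library, had the fewest counts of the members and so the largest counting error.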
